A study of Mus musculus with 2 samples.

Results

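The genes described here encode the proteins of the mitochondrial ribosome. They were taken by name, as every gene called Mrpl or Mrps with a number and at most 1 further letter. The rule found 76 genes among the 37146 in the liver tables, 47 named for the large subunit (Mrpl) and 29 for the small subunit (Mrps), spread over 17 chromosomes. Of these, 73 had a mean of at least 1 FPKM (fragments scaled to transcript length and to library size) over both libraries, 44 from the large and 29 from the small subunit. The other 3, Mrpl2, Mrpl18 and Mrpl48, were listed at 0 in both. The threshold of 1 FPKM cut through no group of intermediate values, since the lowest gene kept, Mrpl23, averaged 1.94 FPKM.

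The series compared livers of CD-1 mice, an outbred laboratory strain, after oral titanium dioxide nanoparticles (TiO2 NPs) or phosphate-buffered saline (PBS). The Control group received PBS. The NP group received 50 mg of TiO2 NPs per kg body weight per day, from a suspension sonicated for 30 min. Each group has 1 library, and the number, sex and age of the mice and the length of dosing are not stated in these sources. No difference below therefore has a replicate check, no test was possible, and every comparison describes these 2 libraries only.

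Mitochondrial ribosomes translate the few messages of mitochondrial DNA, all of which encode subunits of the respiratory chain complexes and the ATP synthase. Their RNA is made inside the organelle, whereas their proteins are encoded in the nucleus, made in the cytosol and imported. Many of these proteins descend from those of bacterial ribosomes, and others were added in the course of mitochondrial evolution. Hepatocytes are rich in mitochondria, and inherited defects in several of these genes cause combined deficiency of the respiratory chain. A few names mislead: the products of Mrps18a and Mrps30 sit in the large subunit, and Mrps36 has been found to be a part of the α-ketoglutarate dehydrogenase complex.

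Both libraries had the profile of liver. The hepatocyte marker Alb (albumin) stood at 21660 FPKM in Control and 30741 in NP. Of the 9 hepatocyte markers past the filter, 7 had the higher value in NP, beside 45.6% of all genes past it. These 9 markers summed to 45588 FPKM in Control and 56321 in NP, and most of that difference was Alb. All 8 of 8 sinusoidal endothelial markers were lower in NP, with a summed level of 111 FPKM in Control and 86.3 in NP. For Kupffer cells, the macrophages of the liver, all 6 markers past the filter of 8 found were lower in NP. Intervals were wholly below those of Control for 2 of the 6. All 8 summed to 47.4 FPKM in Control and 29.2 in NP. The stellate cell markers summed to 103 and 83.3 FPKM, the lymphocyte markers to 5.75 and 4.56, the bile duct markers to 17.6 and 14.2, and the erythroid markers to 618 and 561. The part of this difference in the values below was not tested, and in whole tissue fewer cells of a type and less RNA per cell cannot be told apart. Coverage for each unit of FPKM was 2.27 for Control and 2.91 for NP, so NP was covered 1.28 times as deeply.

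The 73 genes ranged from 1.94 to 89.0 FPKM in their mean over both libraries. Their median level over both libraries was 22.6 FPKM, against 8.19 for the 10533 genes of the whole table that passed the same filter. The highest was Mrpl52, a large-subunit protein with no bacterial counterpart, at 75.8 FPKM in Control and 102 in NP. Next came Mrpl14, the counterpart of a conserved bacterial protein of the subunit interface, at 63.6 and 89.99 FPKM, and Mrpl12, which forms the stalk that recruits translation factors, at 66.5 and 68.4. The small subunit was led by Mrps34, a gene mutated in some cases of Leigh syndrome, at 55.1 FPKM in Control and 59.9 in NP, and by Mrps21 at 56.2 and 58.3. The span of Mrps34 overlaps Nme3, at 47.2 FPKM in Control and 0 in NP, and Mapk8ip3, at 5.29 and 8.62. The 95% interval that Cufflinks gives for an estimate within 1 library reached a median of 16.7% above the value in Control and 15.5% in NP, and in NP the intervals of Mrpl52 and Mrpl14 overlapped each other but lay above those of the other leaders.

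At the other end lay Mrpl23, whose bacterial counterpart lines the exit of the peptide tunnel, at 2.50 FPKM in Control and 1.38 in NP. Mrps25 followed at 2.48 and 1.92 FPKM, then Mrps36 at 3.84 and 3.07, Mrpl47 at 4.13 and 4.36, and Mrpl35 at 4.66 and 4.80. With Mrps36 set aside, levels per length still differed widely among genes whose proteins are built into the same particle. Known disease genes lay across that range, with Mrpl3 at 9.63 FPKM in Control and 8.38 in NP, Mrps22 at 13.2 and 16.3, Mrpl44 at 13.9 and 16.6, and Mrps16 at 30.1 and 37.6. Among all 73, the main transcript was short, with a median of 940 nt against 2416 nt for all genes kept, from 332 nt for Mrps23 to 6073 nt for Mrps25.

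**Figure D1:**
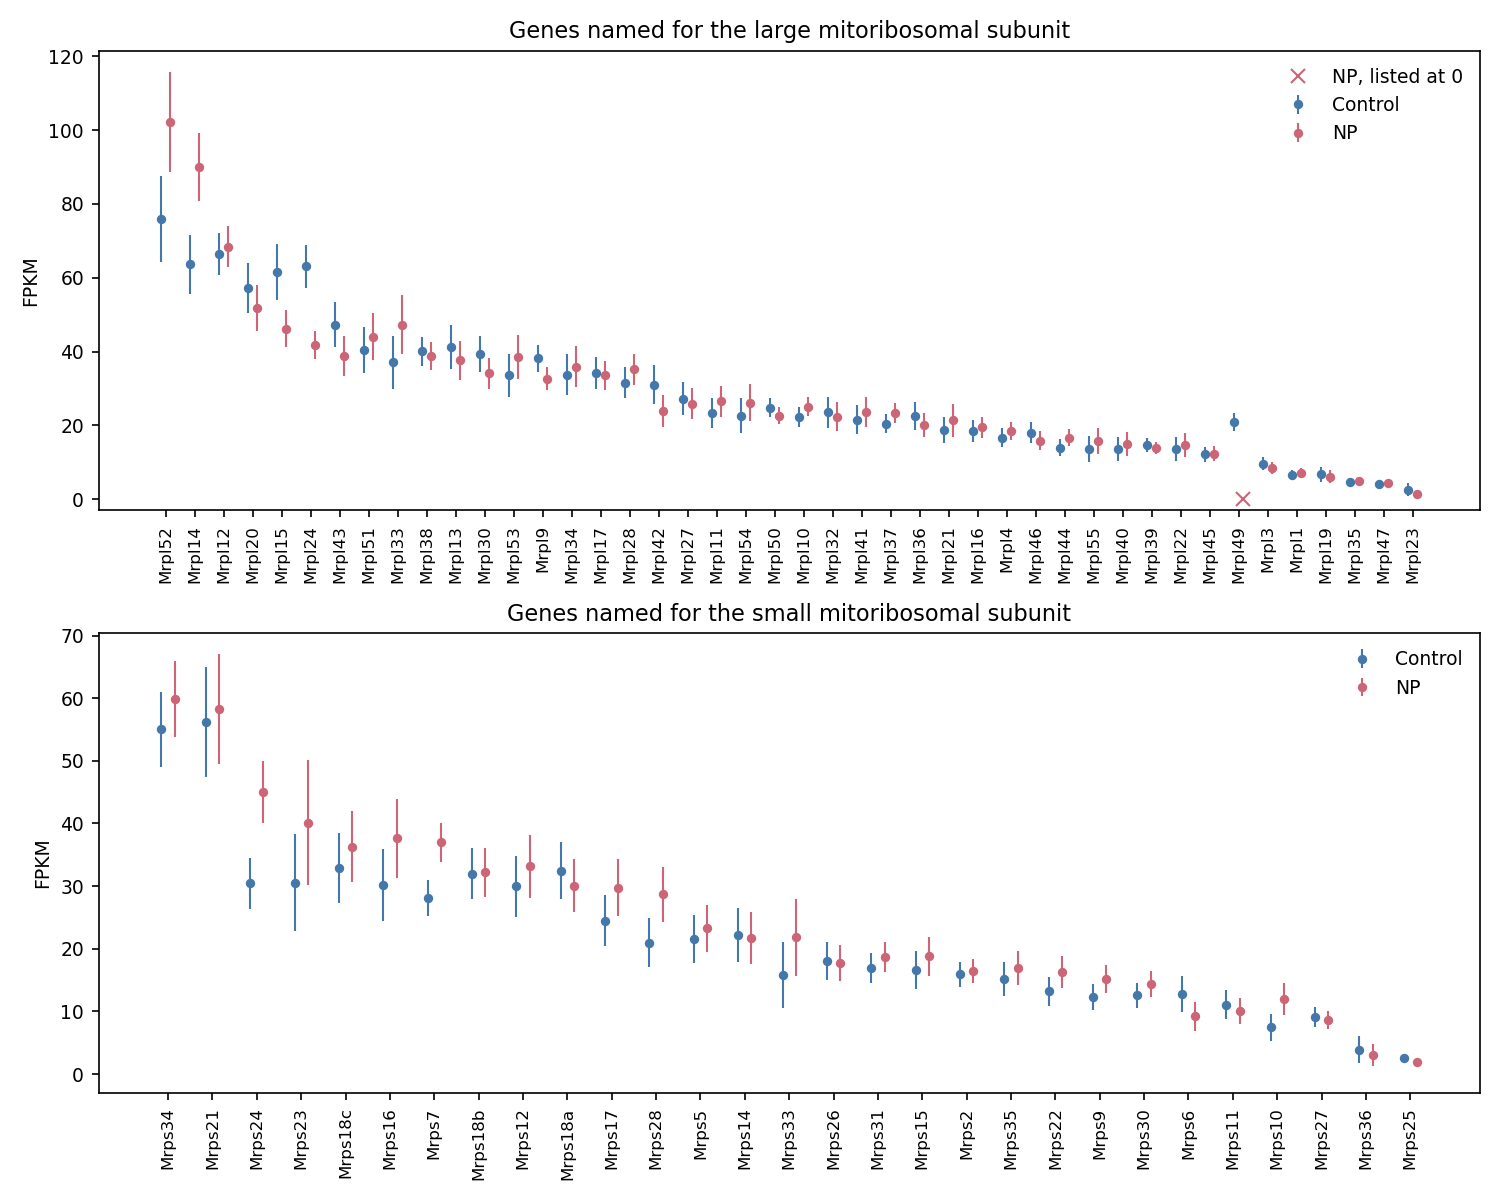
FPKM of each mitochondrial ribosomal protein gene in the Control and NP libraries on a linear axis. Each subunit has its own panel, ordered by level, and bars give the 95% interval of the estimate within each library. The values of most genes lie close together in both libraries, from Mrpl23 near the bottom to Mrpl52 at the top, and Mrpl49 stands at 0 in NP.

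Most members had nearly the same level in both libraries. Ratios were taken as log2((NP + 1)/(Control + 1)), which makes differences between low values look smaller. Only Mrps10 was at least 1.5-fold higher in NP, beside 3.6% of all genes kept, and only Mrpl49 was at least 1.5-fold lower, beside 5.33%. No member was 2-fold higher (background 1.14%), and the 1 member past 2-fold lower (background 1.88%) was again Mrpl49. That call rests on a listed 0 in NP, and without genes listed at 0 no member was 1.5-fold lower, a count of 0. Within 1.25-fold in either direction lay 58 of the 73, or 79.5%, against 75.8% of all genes kept, and the median absolute log2 ratio was 0.15 against 0.17. The size of the differences among these genes was thus close to that in the table as a whole.

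The signs of the small differences leaned towards NP. The median log2 ratio of the 73 genes was 0.09, with quartiles of -0.11 and 0.18, against a median of -0.03 and quartiles of -0.19 and 0.14 for all genes kept. A ratio above 0 was found for 45 of the 73, or 61.6%, beside 45.6% of all genes kept. Their FPKM summed to 1882 in Control and 1965 in NP, a log2 ratio of 0.06, against 0.04 for the sum of all genes kept. Intervals of NP lay wholly above those of Control for 4 members (background 7.73%), Mrpl14, Mrpl52, Mrps7 and Mrps24, and wholly below for 3 (background 9.58%), Mrpl15, Mrpl24 and Mrpl49. The other 66 overlapped between libraries, so both counts were under the background share.

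By subunit, the median ratio was above that of all genes kept in both, and higher in the small subunit. Its 29 genes summed to 630 FPKM in Control and 714 in NP, a log2 ratio of 0.18, with a median of 0.14 and 21 of 29 ratios above 0 (72.4%, beside 45.6% of all genes kept). The 44 genes of the large subunit summed to 1252 FPKM in Control and 1251 in NP, with a median log2 ratio of 0.04 and 24 of 44 ratios above 0 (54.5%). Within the small subunit, the 18 genes with bacterial counterparts had a median of 0.14 and 14 ratios above 0, and the 11 mitochondria-specific genes had 0.13 and 7 above 0. Within the large subunit, the 27 genes with bacterial counterparts had a median of 0.04 and 14 ratios above 0, and the 17 mitochondria-specific genes had 0.12 and 10 above 0. The difference between subunits was not tested, and the sign of the ratio of sums for the large subunit depended on the scaling and on Mrpl49, at 0.03 after scaling and 0.02 without that gene. With Mrps18a and Mrps30 counted in the large subunit, where their products sit, the small-subunit sum gave a log2 ratio of 0.19. Mrps36 stayed in the small-subunit counts and sums throughout.

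**Figure D2:**
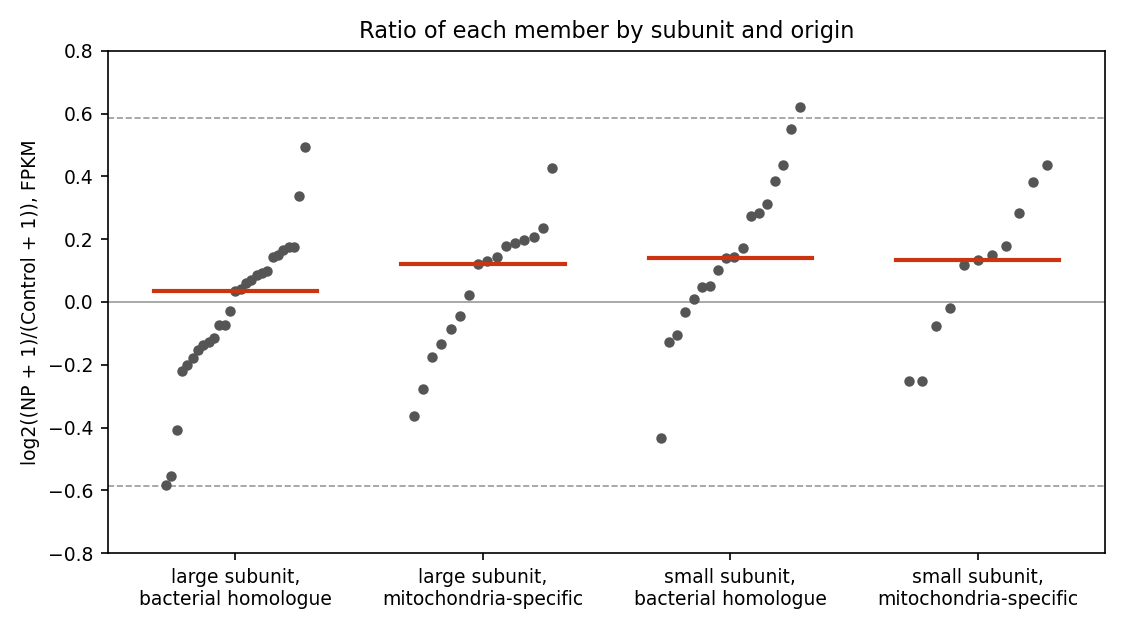
Log2 ratio of NP over Control (FPKM + 1) for each gene by subunit and by descent from bacterial proteins; each point is 1 gene, the bar is the median of the group and the dashed lines mark 1.5-fold. The medians of the small-subunit groups lie at 0.14 and 0.13 and those of the large-subunit groups at 0.04 and 0.12; Mrpl49 counts in its median but lies outside the range drawn.

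Among small-subunit genes, the highest ratio was that of Mrps10 (chromosome 17, positions 47505836 to 47518366 of build mm9), the counterpart of bacterial S10. It stood at 7.45 FPKM in Control, with an interval of 5.33 to 9.58, and at 12.0 in NP, with an interval of 9.47 to 14.5, which makes 1.61-fold. The intervals touched at their ends, so the single member past 1.5-fold higher was not among those with separate intervals. Its 2 main transcript rows differed the same way, from 5.01 to 7.46 FPKM and from 2.15 to 3.83 in Control and NP.

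Mrps24 (chromosome 11, 5603986 to 5615683), the counterpart of bacterial S3 at the entry of the mRNA channel, stood at 30.4 FPKM in Control, with an interval of 26.3 to 34.6. In NP it stood at 45.0 FPKM, with an interval of 40.1 to 49.9, and the ratio was 1.48. Mrps7 (chromosome 11, 115465239 to 115469350), whose bacterial counterpart starts assembly of the head of the small subunit, had 28.1 FPKM in Control and 37.0 in NP, or 1.32-fold, with separate intervals. Both genes share ground with others. The span of Mrps7 overlaps Gga3, which had 5.46 FPKM in Control and 0 in NP, and Mif4gd, at 24.2 and 38.2, and the span of Mrps24 overlaps Urgcp, at 9.28 and 8.83. Whether the counting used strand is not given in these sources, so reads of overlapping genes may have been divided between them.

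Several further small-subunit genes had higher values in NP with overlapping intervals. Mrps33 stood at 15.9 FPKM in Control and 21.8 in NP, Mrps28, the counterpart of bacterial S1, at 21.0 and 28.7, and Mrps23 at 30.6 and 40.1. Mrps12, the counterpart of the decoding-centre protein S12, differed little, at 30.0 and 33.1 FPKM, and Mrps30 stood at 12.6 and 14.4. The lowest ratio of this subunit belonged to Mrps6 (chromosome 16, 92058515 to 92112472), at 12.8 FPKM in Control and 9.18 in NP, a log2 ratio of -0.43. Its span overlaps Slc5a3, at 1.56 and 1.06 FPKM. Low values with wide intervals, such as those of Mrps36, from 1.75 to 6.01 FPKM in Control and from 1.27 to 4.86 in NP, give no order between libraries.

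In the large subunit, the largest ratios towards NP were those of 2 of the most abundant members. Mrpl14 (chromosome 17, 45823271 to 45835444) had an interval of 55.7 to 71.5 FPKM in Control and of 80.7 to 99.3 in NP, which is 1.41-fold. Mrpl52 (chromosome 14, 55045746 to 55048587) had an interval of 64.2 to 87.5 FPKM in Control and of 88.6 to 116 in NP, a ratio of 1.35. Mrpl52 is the only member with a separate and higher NP interval that overlaps no other gene of at least 1 FPKM, since the span of Mrpl14 meets that of Tmem63b, at 25.9 and 30.2 FPKM. Mrpl33 followed at 37.1 and 47.2 FPKM, with overlapping intervals. Mrpl37 stood at 20.5 and 23.3 FPKM, Mrpl41 at 21.5 and 23.6 and Mrpl51 at 40.4 and 44.0, again with overlapping intervals.

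Mrpl49 (chromosome 19, 6053630 to 6057758), a mitochondria-specific protein of the large subunit, was the only member at 0 in 1 library, beside 0.921% of all genes kept. It stood at 20.9 FPKM in Control, with an interval of 18.3 to 23.4, in 1 transcript row of 1722 nt, and was listed at 0 in NP with an upper limit of 0.118. Its neighbour Syvn1, an E3 ubiquitin ligase of the endoplasmic reticulum whose span (6046576 to 6053712) overlaps it, stood at 42.0 FPKM in Control and 96.9 in NP, 2.31 times as high. In FPKM times transcript length in kb, which follows the fragments assigned to a gene, the difference of NP from Control was -35.9 for Mrpl49 and 190.2 for Syvn1. Because a listed 0 may be an estimate that failed, Mrpl49 gets no fold here, and whether its fragments were assigned to Syvn1 in NP was not tested.

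The next lowest ratios in the large subunit came from genes with several annotated transcripts. Mrpl24 (chromosome 3, 87723428 to 87727594), whose counterpart lies at the mouth of the exit tunnel, stood at 63.1 FPKM in Control, with an interval of 57.2 to 69.0, and at 41.7 in NP, with an interval of 37.9 to 45.6. Control was 1.51 times NP, and on the log2(FPKM + 1) scale the ratio of -0.58 lay just short of the 1.5-fold threshold. Its transcript rows differed in opposite directions. The row of 1226 nt had 16.0 FPKM in Control and was listed at 0 in NP, the row of 1234 nt had 15.6 and 0, and the row of 1339 nt had 26.8 and 36.1.

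Mrpl15 (chromosome 1, 4763287 to 4775820), a core protein of the large subunit, showed the same kind of split. In sum it stood at 61.5 FPKM in Control, with an interval of 53.8 to 69.2, and at 46.2 in NP, with an interval of 41.2 to 51.1. The difference lay in a row of only 497 nt, at 25.1 FPKM in Control and 0 in NP, while the main row of 910 nt had 30.1 and 33.8 FPKM. Rows of 1894 nt and 4203 nt were at 0 in Control and at 4.22 and 2.38 FPKM in NP. A short row adds many FPKM for few fragments, and when each row was weighted by its length the log2 ratio of Mrpl15 was 0.24 in place of -0.41. The lower value of Mrpl15 in NP thus held for the sum of FPKM and not for the length-weighted sum.

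**Figure D3:**
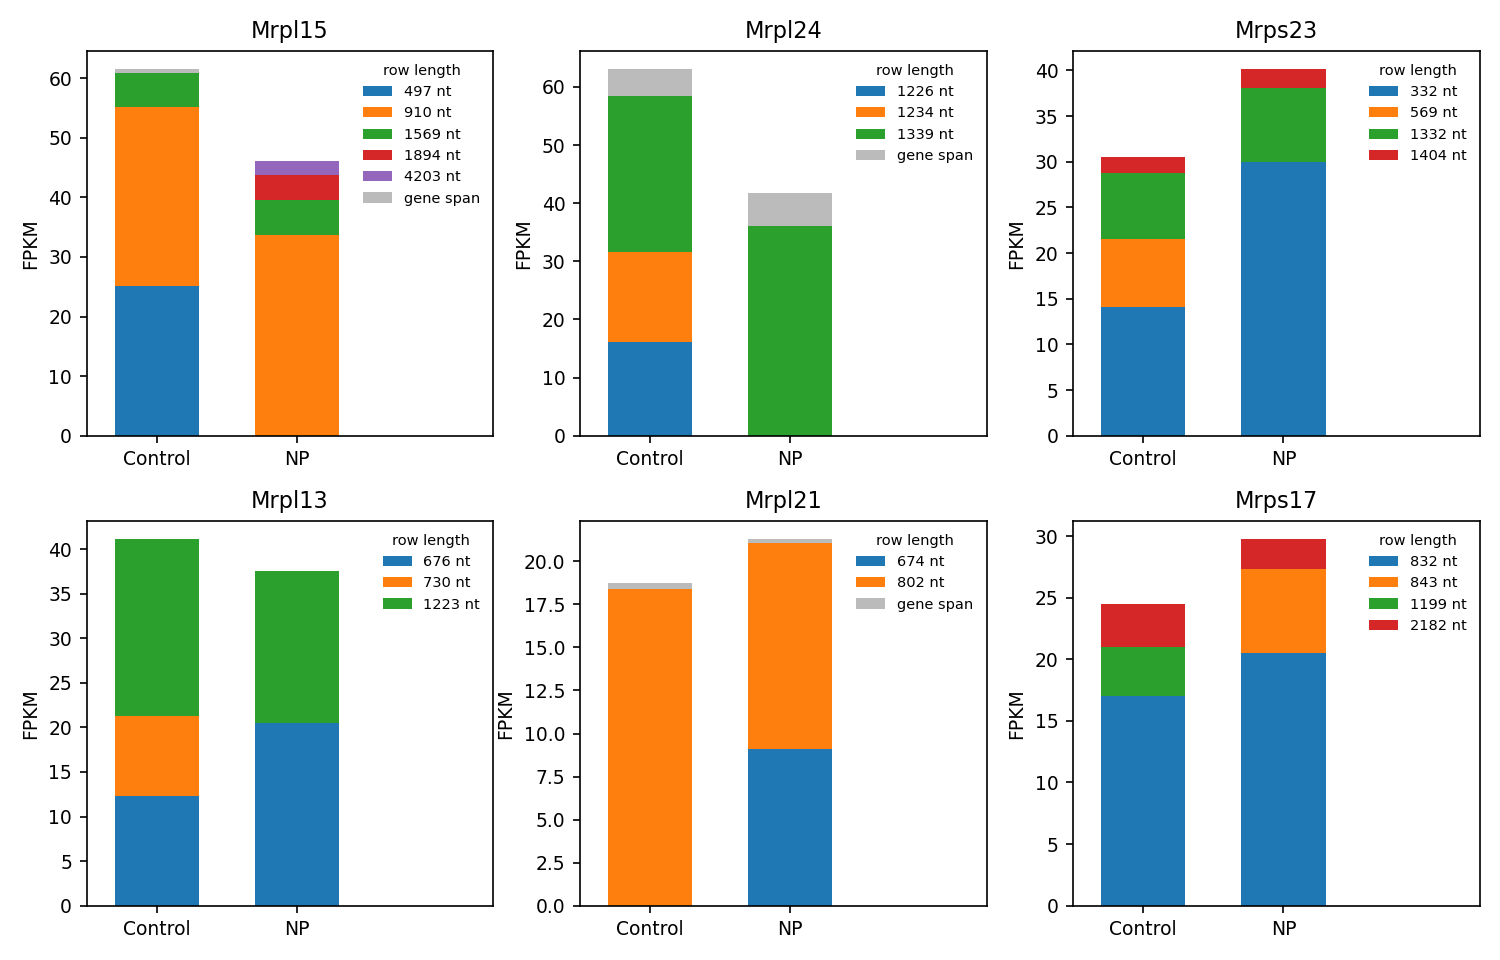
FPKM of the annotated transcript rows of 6 members in Control and NP, stacked and labelled by the length of the row in nt, with the row for the whole gene span in grey. In Mrpl15 and Mrpl24 the rows of 497, 1226 and 1234 nt are present in Control and absent in NP, and their other transcript rows are nearly equal or higher in NP.

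Rows at 0 in a single library were found in other members as well. Counted over all members, 13 transcript rows had at least 1 FPKM in 1 library and 0 in the other, and they belonged to 9 genes. The share of such rows among all genes kept was not counted, so this number does not set the members apart. Mrpl21 had a row of 802 nt at 18.4 FPKM in Control and 12.0 in NP, and a row of 674 nt at 0 and 9.08. Mrps17 had a row of 843 nt at 0 and 6.79 FPKM, and a row of 1199 nt at 4.02 and 0. In Mrpl13 a row of 730 nt went from 8.95 FPKM in Control to 0 in NP, beside a row of 676 nt at 12.3 and 20.4. In Mrps23 the row of 332 nt, the shortest main transcript of all members, had 14.1 and 30.0 FPKM, and a row of 569 nt had 7.44 and 0. In these genes the row values differed between libraries more than the sums did.

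Length weighting changed the sign of the ratio for 5 of the 72 members above 0 in both libraries, Mrpl1, Mrpl15, Mrpl17, Mrps14 and Mrps26. For Mrps26 the log2 ratio went from -0.02 to 0.28 through a row of 4278 nt at 0 FPKM in Control and 1.33 in NP. For Mrps10 it went from 0.62 to 0.89, with a row of 4090 nt at 0 and 0.493 FPKM. The higher NP values of Mrps23 and Mrps17 shrank, from 0.38 to 0.17 and from 0.27 to 0.09. The main transcript was the same in both libraries in all but 4 of the 72, Mrpl13, Mrpl23, Mrps33 and Mrps36. Neither this count nor that of the sign changes was made over all genes kept. Since 51 of the 73 members had a single transcript row above 0, the sum and the weighted sum could hardly differ for most of them.

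**Figure D4:**
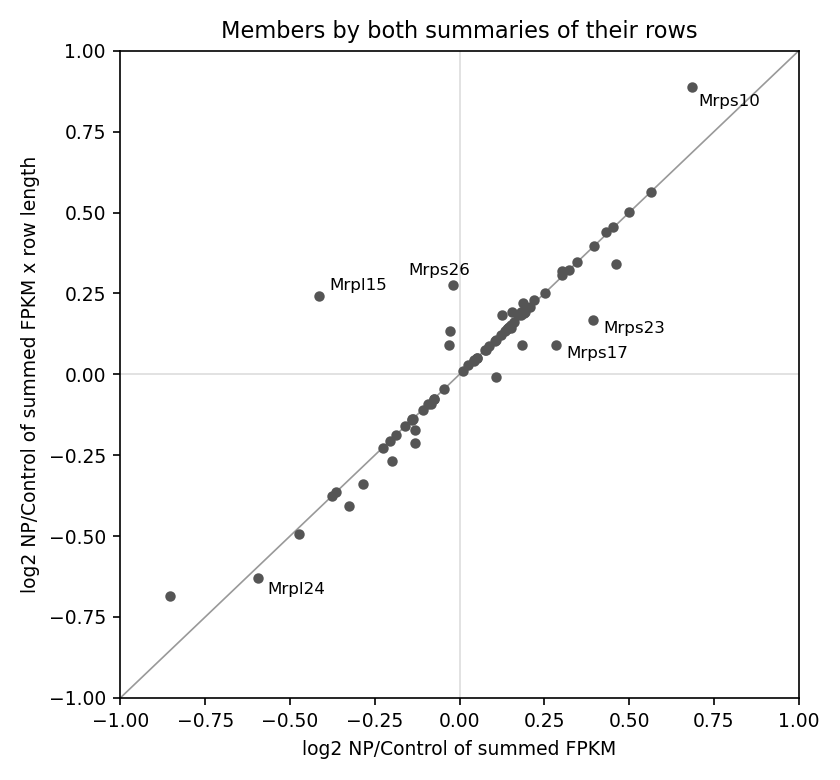
Log2 ratio of NP over Control from FPKM weighted by transcript length (vertical axis) against that from summed FPKM with nothing added (horizontal axis). Each of the 72 members above 0 in both libraries is 1 point. Most points follow the diagonal, and Mrpl15 lies farthest from it, at 0.24 against -0.41.

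The remaining large-subunit genes with lower values in NP had overlapping intervals. Mrpl42 stood at 31.0 FPKM in Control and 23.9 in NP, and Mrpl43, which overlaps the mitochondrial helicase gene Peo1 at 9.72 and 12.4 FPKM, stood at 47.2 and 38.8. Mrpl20, the counterpart of a bacterial protein that starts large-subunit assembly, had 57.2 and 51.9 FPKM. The interval of Mrpl23 ran from 0.860 to 4.32 FPKM in Control and from 0.365 to 2.405 in NP. Its log2 ratio of -0.56 thus came with intervals wider than the difference.

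The 3 genes listed at 0 in both libraries all lie over or inside other genes. How many other genes at 0 do so was not counted, so this does not set the 3 apart. Mrpl2 overlaps no gene of at least 1 FPKM. It is inside the annotated span of Gm16736 (chromosome 17, 46608450 to 46962170), which lies under that level. Of the 17 genes inside that span 16 were listed at 0 in both libraries. The exception was Gnmt, an abundant liver methyltransferase, at 1155 and 1620 FPKM. Mrpl18 (chromosome 17, 13104215 to 13109211) overlaps Tcp1, a subunit of the cytosolic chaperonin, at 80.9 and 75.5 FPKM. Mrpl48 (chromosome 7, 107694265 to 107756811) overlaps Rab6, at 29.2 and 25.6 FPKM. The upper limits of their longest transcript rows were 0.196 FPKM in Control and 0.176 in NP for Mrpl18, 0.238 and 0.215 for Mrpl2, and 0.0502 and 0.0442 for Mrpl48. These zeros are reported as listed and not as absence of expression. Among the 73 members kept, 15 overlapped another gene of at least 1 FPKM, beside 11.4% of all genes kept.

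Mrps18a, Mrps18b and Mrps18c are paralogs that descend from 1 bacterial protein, S18, and a ribosome holds their products at different places. All had nearly the same level, with 32.4 FPKM in Control and 30.1 in NP for Mrps18a, 32.0 and 32.2 for Mrps18b, and 32.8 and 36.3 for Mrps18c. Their start regions all hold an ETS match, and Mrps18a has a YY1 match and Mrps18b an NRF1 match besides, motifs known from nuclear genes for mitochondrial proteins. The motifs searched were GCGCATGCG for nuclear respiratory factor 1 (NRF1), AAGATGGCG for YY1 and CCGGAAG for the ETS family, to which GABP belongs, each on both strands. The ETS motif ends in the 3 letters with which the YY1 motif begins, so their matches may overlap. Sequences came from RefSeq on build GRCm38.p6, from 250 bases before to 50 after the annotated start, and 67 of the 76 genes were matched. For 59 of the 67 the 20 bases after that start were found in an annotated transcript, but not for Mrps18b. For each of the 3 paralogs a stretch with matches is given in the direction of the gene, and Mrpl22, which holds an ETS and an NRF1 match side by side, is added, with the matches in capitals. They are chr17:46110924-46111033 (plus strand) for Mrps18a, with an ETS and a YY1 match, chr17:35916581-35916690 (minus strand) for Mrps18b, with an NRF1 match, chr5:100798520-100798629 (plus strand) for Mrps18c, with an ETS match, and chr11:58171550-58171659 (plus strand) for Mrpl22.
Mrps18a: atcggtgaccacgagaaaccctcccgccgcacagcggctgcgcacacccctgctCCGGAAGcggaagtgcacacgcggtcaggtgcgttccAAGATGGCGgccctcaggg
Mrps18b: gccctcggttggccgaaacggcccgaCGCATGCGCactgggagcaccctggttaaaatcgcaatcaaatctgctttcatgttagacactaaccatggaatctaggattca
Mrps18c: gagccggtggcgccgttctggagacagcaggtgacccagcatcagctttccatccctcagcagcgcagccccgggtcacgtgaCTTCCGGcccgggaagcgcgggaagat
Mrpl22: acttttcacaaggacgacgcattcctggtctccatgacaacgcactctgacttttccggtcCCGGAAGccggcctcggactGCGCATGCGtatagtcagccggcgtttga

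In Mrps18b and Mrps18c the capitals are the reverse complement of the NRF1 and ETS motifs, and Mrps18b has a further ETS match outside the stretch shown. Over the 67 genes, the NRF1 motif was found in 7 (10.4%), against 4.57% of the 6952 kept genes matched and 1.95% of all 27025 genes with a promoter sequence. A gene counted when any of its promoters held the motif. The YY1 motif was found in 8 (11.9%), against 4.07% and 1.64%, and the ETS motif in 24 (35.8%), against 21.1% and 9.93%. Any of the motifs was present in 34 of the 67 (50.7%), against 27.4% of kept genes and 12.7% of all. The median log2 ratio between libraries was -0.03 for the 7 genes with an NRF1 match and 0.09 for the 57 without, -0.09 for the 8 with a YY1 match and 0.09 for the 56 without, and 0.11 for the 22 with an ETS match and 0.05 for the 42 without. A match is a description of letters and not a bound site. Mrpl22, which holds NRF1 and ETS matches, stood at 13.6 FPKM in Control and 14.6 in NP.

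A single pair of members lies within 50000 bases of each other. Mrpl46 (chromosome 7, 85920122 to 85928417) and Mrps11 (chromosome 7, 85928005 to 85937875) point away from each other, and their annotated spans in mm9 overlap by 413 bases. They join 1 protein of each subunit at a shared start region. Their RefSeq starts on GRCm38.p6 are separated by 41 bases, in capitals in chr7:78783060-78783160 (plus strand), which is shown because 1 stretch serves as the start region of both.
Mrpl46 and Mrps11: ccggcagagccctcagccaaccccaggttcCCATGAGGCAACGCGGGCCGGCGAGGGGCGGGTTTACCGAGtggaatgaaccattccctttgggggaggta

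Both genes had slightly lower values in NP. Mrpl46 stood at 18.0 FPKM in Control and 15.8 in NP, a log2 ratio of -0.18, and Mrps11 at 11.0 and 10.03, a log2 ratio of -0.13. The intervals of both overlapped between libraries.

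Other genes of mitochondrial translation were read from lists chosen with earlier results known. Of 7 mitoribosomal proteins under other names, 6 passed the filter, with a median log2 ratio of -0.01. None was past 1.5-fold, beside 3.6% of all genes kept higher and 5.33% lower. Among them, Ict1, a hydrolase built into the large subunit that rescues stalled ribosomes, stood at 25.2 FPKM in Control and 35.1 in NP, and Gadd45gip1, a protein at the tunnel exit, at 7.65 and 5.85. Dap3, a GTP-binding protein of the small subunit, was listed at 0 in both. Of 24 assembly factors kept, none passed 1.5-fold. A ratio above 0 was found for 16 of them (66.7%, beside 45.6% of all genes kept), and the median was 0.08. Fastk, which binds mitochondrial RNA, had 17.3 and 22.3 FPKM with separate intervals, and the GTPase Mtg1 had 14.6 and 12.3. These lists, like the ribosomal proteins themselves, differed little between libraries.

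Of 16 translation factors, 1 was at least 1.5-fold higher (beside 3.6% of all genes kept) and 1 was lower (beside 5.33%). A ratio above 0 was found for 5 of them (31.25%, beside 45.6% of all genes kept). The median was -0.12, and these counts are too small to set the list apart. Pdf, the deformylase that acts on the first residue of new chains, stood at 10.9 FPKM in Control, with an interval of 8.78 to 13.02, and at 17.4 in NP, with an interval of 14.9 to 19.9. Guf1, the counterpart of the bacterial factor LepA, stood at 6.28 FPKM in Control, with an interval of 5.04 to 7.53, and at 3.70 in NP, with an interval of 2.78 to 4.63. Both were thus separated beyond the error within a library. Of 16 mitochondrial aminoacyl-tRNA synthetases, 1 was higher (3.6% of all genes kept) and none lower (5.33%), with a median of 0.10. Ears2, which charges the tRNA for glutamate, had 5.78 and 10.6 FPKM, a ratio of 1.82 with separate intervals, and Lars2, which charges those for leucine, had 14.1 and 11.4, also separate.

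Among 13 regulators of mitochondrial gene expression, 1 was past 1.5-fold lower (5.33% of all genes kept), none higher (3.6%), and the median was 0.02. It was Ppargc1b, a coactivator of nuclear genes for mitochondria, at 3.32 FPKM in Control, with an interval of 2.68 to 3.97, and 1.04 in NP, with an interval of 0.709 to 1.37, so that Control was 3.20 times NP. Its partner receptor Esrra stood at 20.4 FPKM in Control and 25.04 in NP, with intervals of 18.2 to 22.6 and 22.7 to 27.4. Nrf1 had 2.98 and 3.43 FPKM, Gabpa, the DNA-binding subunit of GABP, 14.4 and 12.2, Yy1 18.5 and 17.6, and Tfam, which packages mitochondrial DNA, 24.0 and 26.2. The genes of NRF1, YY1 and this GABP subunit thus each differed by less than 1.5-fold.

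**Figure D5:**
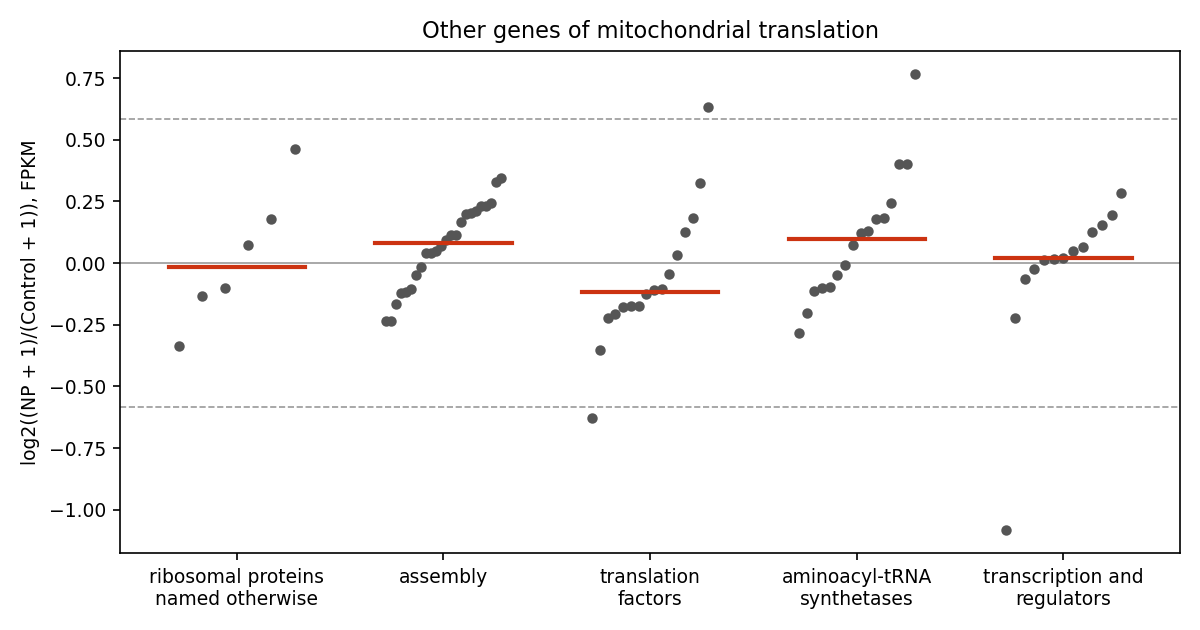
Log2 ratio of NP over Control (FPKM + 1) for the other lists of mitochondrial translation genes, without the Mrpl and Mrps members. Each point is 1 gene, the bar is the median of the list and the dashed lines mark 1.5-fold. Ppargc1b at -1.08 and Ears2 at 0.77 are the points farthest from 0 among the other lists.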

How the data were processed

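Liver RNA-seq of 1 Control and 1 NP library was analysed. The submitters' processing notes name TopHat2 2.1.0, Cufflinks 2.2.1.0 and mm9. The deposited FPKM values are in the isoform tracking format of Cufflinks, per the file headers, with a 95% interval, a length and a read coverage signal for each of 119289 rows. FPKM of all rows of a gene were summed and interval half-widths combined in quadrature, which leaves out covariance between rows. The filter asked for a mean FPKM of 1 or more, OK status, some transcript of 300 nt or longer and a name not of a small RNA; 10533 of 37146 genes passed. With 1 library per group no p-value, SE or n applies, so genes were counted past 1.5-fold. Depth in fragments is unknown. Members named were those at 0 in 1 library, past 1.5-fold, among the 10 of highest mean, among the 6 highest or 6 lowest ratios, or on a fixed list of 15; other lists gave up to 2 genes at each end. Further members (low levels, transcript rows, promoters, overlaps, the neighbouring pair) and regulators were chosen after their values were seen. Members and lists were chosen with earlier results of these data known. Alternatives changed the pseudocount, filter, scaling, rows and size rule. The counting was tested on a copy of the Control values with known folds put in and no noise added. Python 3.11.15, pandas 2.3.3, numpy 2.4.6 and matplotlib 3.10.9 were used. The result of 1 marker gene is not reported here.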

Additional observations from a re-analysis of the deposited data

How the results depend on the processing

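No paired analysis was possible because each group has 1 library, and for the same reason no replicate could be left out. The 1 member at least 1.5-fold higher became 0 at 2-fold. The 1 member at least 1.5-fold lower became 3 with a pseudocount of 0.1, 2 with plain FPKM ratios, 2 with transcript rows only, 2 with length-weighted FPKM (added after the data were seen), and 0 without genes listed at 0 or without overlapping genes. Without overlapping genes, the count at 0 in 1 library was 0 in place of 1, and separate intervals with NP above numbered 1 in place of 4. The log2 ratio of the summed large subunit, -0.0010, reversed to 0.0282 when NP was scaled by the median ratio of all genes and to 0.0233 without genes at 0. That of the small subunit ranged from 0.169 to 0.210, and its median from 0.139 to 0.168. The cause of these shifts was not tested.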
